A study of Arabidopsis thaliana with 36 samples.

Results

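The 33 genes described here encode the enzymes and transporters that make and break down starch in the Arabidopsis leaf. They were chosen by identifier from the 33557 genes of the mRNA-seq tables. No measured value entered the rule, but earlier results of these data were known when the genes were chosen. All 33 had at least 1 FPKM (fragments scaled for exon length and for the number of fragments mapped in the library) in a group on each day. They fall into 7 roles: 6 genes that supply ADP-glucose, 5 starch synthases, 4 genes that branch the glucan and trim it, 4 that add or remove phosphate on it or bind it, 6 beta-amylases, 4 genes of alpha-amylase, debranching and phosphorolysis, and 4 genes of maltose export and use.

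The tables compare the reciprocal F1 hybrids Fsc (Sei-0 as the mother) and Fcs (Col-0 as the mother) with their parents, the accessions Sei-0 and Col-0. Leaves of 4-week-old plants, grown with 8 h of light a day, were infiltrated with the bacterial pathogen Pst DC3000 and collected at 1, 2 and 3 days post infiltration (dpi), from 3 libraries of at least 30 leaves for each of 12 groups. Every group was infiltrated, so no value here separates a genotype from its response to the pathogen. The deposited value is 1 pooled FPKM per gene and group, so no spread between libraries, no error and no test stands behind any difference below. Fewer cells of a type and less RNA per cell cannot be told apart in such whole leaves. Reads of Sei-0 and of the hybrids were aligned to the Col-0 genome, so a difference in Sei-0 and a difference in how its reads align cannot be told apart.

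Starch in leaves is made in chloroplasts by day and broken down at night to feed the plant until dawn. ADP-glucose, made by ADP-glucose pyrophosphorylase, is joined into glucan chains by starch synthases, branched by branching enzymes and trimmed by isoamylase. At night the dikinases GWD1 and PWD phosphorylate the granule surface, beta-amylases release maltose, and maltose leaves the chloroplast through MEX1 to be used by DPE2 in the cytosol. In Arabidopsis the mRNAs of many of these genes are known to cycle over the day under the circadian clock. The hour at which leaves were collected is not given in the sources used here.

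The libraries look like leaf. The 5 leaf markers lay between 30.8 and 17569.5 FPKM, while the 6 markers of root, flower and seed reached at most 0.431 FPKM in any group. Of the 8 control genes, only UBQ10 was 2-fold apart between the parents, with 468, 546 and 701 FPKM in Sei-0 at 1, 2 and 3 dpi, against 1331, 1788 and 2082 FPKM in Col-0. FPKM summed to between 935587 and 1192353 per group, and the median log2 ratio of a group to Col-0 on the same day lay between -0.021 and 0.011. The 3 days were normalized in separate tables, so levels set side by side across days are not on 1 scale.

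A gene was counted as above or below both parents when Fsc and Fcs each lay at least 2-fold from Sei-0 and from Col-0 on the log2(FPKM + 1) scale. Below both parents were 2 of 33 members at 1 dpi, 2 at 2 dpi and 3 at 3 dpi, where 1.67%, 0.770% and 2.39% of all genes with at least 1 FPKM met the same rule. Above both parents were 0 members at 1 dpi, 1 at 2 dpi and 4 at 3 dpi, against 1.71%, 0.450% and 0.955% of all genes. GBSS1 and BAM9 were below both parents on all 3 days, and BAM1 joined them at 3 dpi. PGM1 was above both parents at 2 and 3 dpi, and GWD1, PWD and PHS2 at 3 dpi. Members thus lay on both sides of the parents at the same time, those below being a synthase and beta-amylases and those above a phosphoglucomutase, the dikinases and a phosphorylase.

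**Figure D1:**
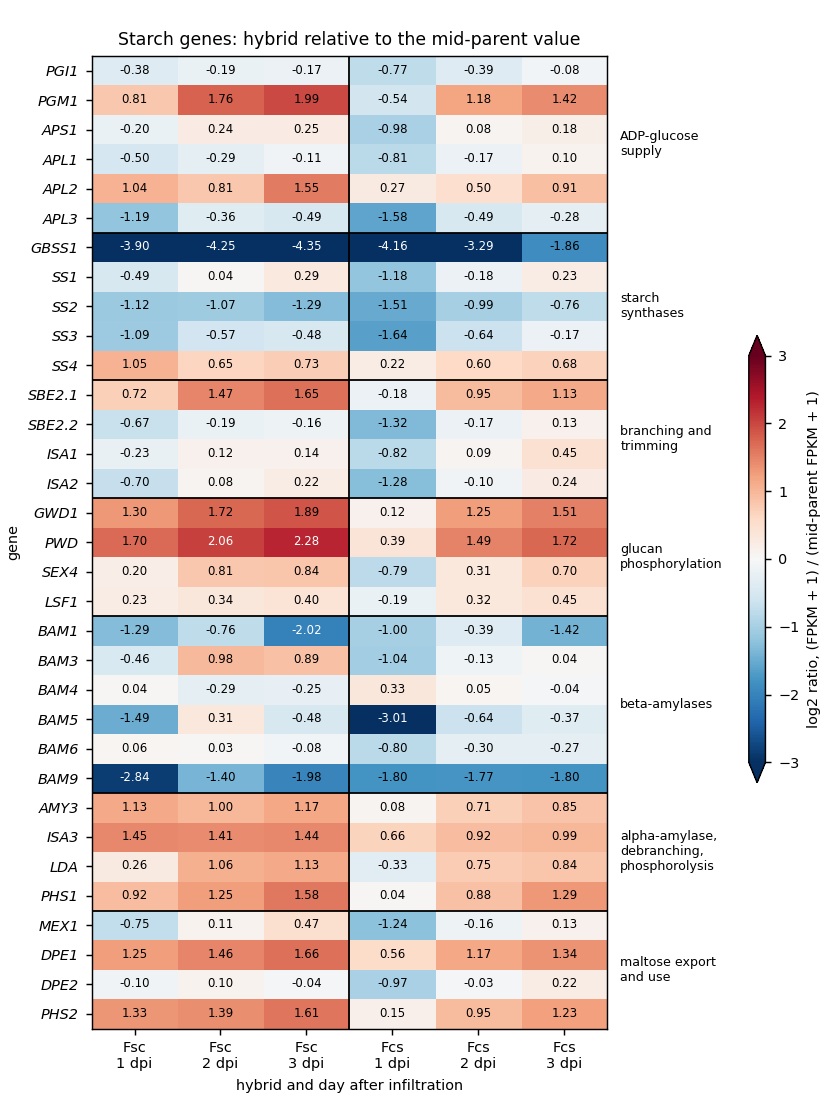
Rows are the 33 starch genes, grouped by role, and columns are the hybrids Fsc and Fcs at 1, 2 and 3 dpi. Each cell gives the log2 ratio of the hybrid's FPKM + 1 to the parents' mean FPKM + 1, in colour from -3 to 3 and as a number. GBSS1 and BAM9 are blue in all 6 columns, and PWD is red in all 6, from 0.39 in Fcs at 1 dpi to 2.28 in Fsc at 3 dpi.

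The parents' mean FPKM served as the mid-parent value (MPV). Across all 33 members the log2 ratio to the MPV had a median of -0.10 in Fsc and -0.80 in Fcs at 1 dpi. The medians were 0.24 for Fsc and 0.05 for Fcs at 2 dpi, and 0.29 for Fsc and 0.23 for Fcs at 3 dpi. Over all genes these medians lay between -0.03 and -0.02. The members' ratios ran from -4.35, for GBSS1 in Fsc at 3 dpi, to 2.28, for PWD in the same group. At 1 dpi 23 of 33 members lay below the MPV in Fcs and 17 in Fsc, and at 3 dpi 10 in Fcs and 13 in Fsc. The shares of all genes on each side of the MPV were not counted.

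The ADP-glucose supply genes begin the pathway in the chloroplast. PGM1 (AT5G51820, chr5:21063368-21068057 in TAIR10) encodes the plastidial phosphoglucomutase, which turns glucose 6-phosphate into glucose 1-phosphate. Its level was 28.6 FPKM in Fsc and 10.6 FPKM in Fcs at 1 dpi, against 8.94 FPKM in Sei-0 and 22.7 FPKM in Col-0. At 2 dpi PGM1 had 71.4 FPKM in Fsc and 47.5 FPKM in Fcs, against 19.7 FPKM in Sei-0 and 21.0 FPKM in Col-0. By 3 dpi it had 115 FPKM in Fsc and 77.1 FPKM in Fcs, against 29.5 FPKM in Sei-0 and 27.0 FPKM in Col-0. Both hybrids stood above both parents at 2 and 3 dpi, whereas at 1 dpi Fcs lay between the parents.

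The other supply genes differed less between the groups, apart from APL2 and APL3. PGI1 (AT4G24620), the plastidial phosphoglucose isomerase, lay between 25.5 and 47.3 FPKM over all 12 groups. APS1 (AT5G48300), the catalytic small subunit of ADP-glucose pyrophosphorylase, had 129.9 FPKM in Fsc and 75.1 FPKM in Fcs at 1 dpi, against 157 FPKM in Sei-0 and 142 FPKM in Col-0, and 141 to 179 FPKM in the 4 groups of 3 dpi. Fcs was thus the low group for APS1 at 1 dpi, and the groups drew together later. Of the large subunits, APL1 (AT5G19220), the main one in leaves, lay between 76.6 and 172 FPKM. APL2 (AT1G27680) was at 23.6 FPKM in Fsc and 14.9 FPKM in Fcs at 3 dpi, against 9.43 FPKM in Sei-0 and 5.41 FPKM in Col-0. APL3 (AT4G39210) was highest in Col-0 on each day, with 40.2, 28.6 and 29.2 FPKM in Sei-0 at 1, 2 and 3 dpi, against 90.6, 60.6 and 45.9 FPKM in Col-0.

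Among the starch synthases, GBSS1 stood farthest from the parents of all 33 members. GBSS1 (AT1G32900, chr1:11920390-11923766 in TAIR10) encodes the granule-bound starch synthase, which makes amylose. It had 14.4 FPKM in Fsc and 11.9 FPKM in Fcs at 1 dpi, against 150.2 FPKM in Sei-0 and 308 FPKM in Col-0. At 2 dpi the values were 2.16 FPKM in Fsc and 5.14 FPKM in Fcs, against 34.8 FPKM in Sei-0 and 83.5 FPKM in Col-0. At 3 dpi they were 3.00 FPKM in Fsc and 21.5 FPKM in Fcs, against 60.6 FPKM in Sei-0 and 101 FPKM in Col-0. Both hybrids lay below both parents on every day, and Sei-0 lay below Col-0 on every day. Relative to the MPV, GBSS1 had log2 ratios of -3.90, -4.25 and -4.35 in Fsc at 1, 2 and 3 dpi, and of -4.16, -3.29 and -1.86 in Fcs. The hybrids were close to each other at 1 dpi and apart at 3 dpi, where the log2 ratio of Fsc to Fcs was -2.49, the lowest of any member on any day.

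SS2 and SS3, which elongate amylopectin chains, were lower in the hybrids to a smaller degree. SS2 (AT3G01180) had 22.1 FPKM in Fsc and 16.6 FPKM in Fcs at 1 dpi, against 42.5 FPKM in Sei-0 and 55.5 FPKM in Col-0, and its log2 ratio to the MPV lay between -1.51 and -0.76 over both hybrids and the 3 days. SS3 (AT1G11720) was at 16.5 FPKM in Fsc and 11.0 FPKM in Fcs at 1 dpi, against 33.7 FPKM in Sei-0 and 38.8 FPKM in Col-0, and by 3 dpi its ratio was -0.48 in Fsc and -0.17 in Fcs. SS1 (AT5G24300), which extends short chains, differed from the MPV by at most 0.29 on the log2 scale at 2 and 3 dpi, and was at -0.49 in Fsc and -1.18 in Fcs at 1 dpi. SS4 (AT4G18240), which is needed to start granules, went the other way, with 59.8 FPKM in Fsc and 57.6 FPKM in Fcs at 3 dpi, against 46.3 FPKM in Sei-0 and 24.8 FPKM in Col-0. So the 5 synthases did not share a direction: 3 lay below the MPV in both hybrids on each day, 1 lay above it, and SS1 crossed it.

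All 4 branching and trimming genes lay below the MPV in Fcs at 1 dpi, with a median log2 ratio of -1.05. SBE2.1 (AT2G36390), a branching enzyme, lay nearest to the MPV there, at -0.18, and farthest above it at 2 and 3 dpi, and it separated the parents more than any other member at 3 dpi. It had 28.0 FPKM in Fsc and 14.5 FPKM in Fcs at 1 dpi, against 22.2 FPKM in Sei-0 and 11.1 FPKM in Col-0. By 3 dpi SBE2.1 was at 125 FPKM in Fsc and 87.2 FPKM in Fcs, against 67.5 FPKM in Sei-0 and 11.0 FPKM in Col-0. Its paralogue SBE2.2 (AT5G03650) had 23.6 FPKM in Fsc and 14.7 FPKM in Fcs at 1 dpi, against 33.8 FPKM in Sei-0 and 42.6 FPKM in Col-0, so that Fcs alone was over 2-fold below each parent. SBE2.2 had 34.8 FPKM in Fsc and 43.0 FPKM in Fcs at 3 dpi, against 44.6 FPKM in Sei-0 and 33.7 FPKM in Col-0. ISA1 (AT2G39930) and ISA2 (AT1G03310), the partners of the isoamylase complex, lay between 6.69 and 33.6 FPKM in all groups, and their log2 ratios to the MPV at 2 and 3 dpi lay between -0.10 and 0.45. At 1 dpi the ratio of ISA1 was -0.23 in Fsc and -0.82 in Fcs, and that of ISA2 -0.70 in Fsc and -1.28 in Fcs.

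The dikinases that start breakdown were high in the hybrids. GWD1 (AT1G10760, chr1:3581034-3590928 in TAIR10), glucan, water dikinase, had 91.4 FPKM in Fsc and 39.8 FPKM in Fcs at 1 dpi, against 33.1 FPKM in Sei-0 and 40.2 FPKM in Col-0. At 2 dpi GWD1 was at 257 FPKM in Fsc and 185 FPKM in Fcs, against 95.9 FPKM in Sei-0 and 58.6 FPKM in Col-0. At 3 dpi it was at 369 FPKM in Fsc and 284 FPKM in Fcs, against 128 FPKM in Sei-0 and 70.6 FPKM in Col-0. Fsc stood out alone at 1 dpi, and both hybrids were higher than either parent at 2 dpi, with Fcs short of 2-fold over Sei-0, and at least 2-fold higher at 3 dpi.

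PWD (AT5G26570, chr5:9261580-9267729 in TAIR10), phosphoglucan, water dikinase, acts on glucan that GWD1 has phosphorylated. It had 46.6 FPKM in Fsc and 18.3 FPKM in Fcs at 1 dpi, against 15.4 FPKM in Sei-0 and 11.9 FPKM in Col-0. At 2 dpi PWD had 123 FPKM in Fsc and 82.4 FPKM in Fcs, against 43.5 FPKM in Sei-0 and 14.0 FPKM in Col-0. On the last day it had 144 FPKM in Fsc and 97.4 FPKM in Fcs, against 43.5 FPKM in Sei-0 and 14.3 FPKM in Col-0. The order Fsc, Fcs, Sei-0, Col-0 from high to low held on each day. SEX4 (AT3G52180), the phosphatase that removes these phosphates, followed at 3 dpi with 106 FPKM in Fsc and 96.0 FPKM in Fcs, against 81.7 FPKM in Sei-0 and 35.7 FPKM in Col-0. LSF1 (AT3G01510), a related protein that binds starch, had 24.3 FPKM in Fsc and 25.2 FPKM in Fcs at 3 dpi, against 22.7 FPKM in Sei-0 and 13.6 FPKM in Col-0. For both genes it was Col-0 that stood apart at 3 dpi.

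**Figure D2:**
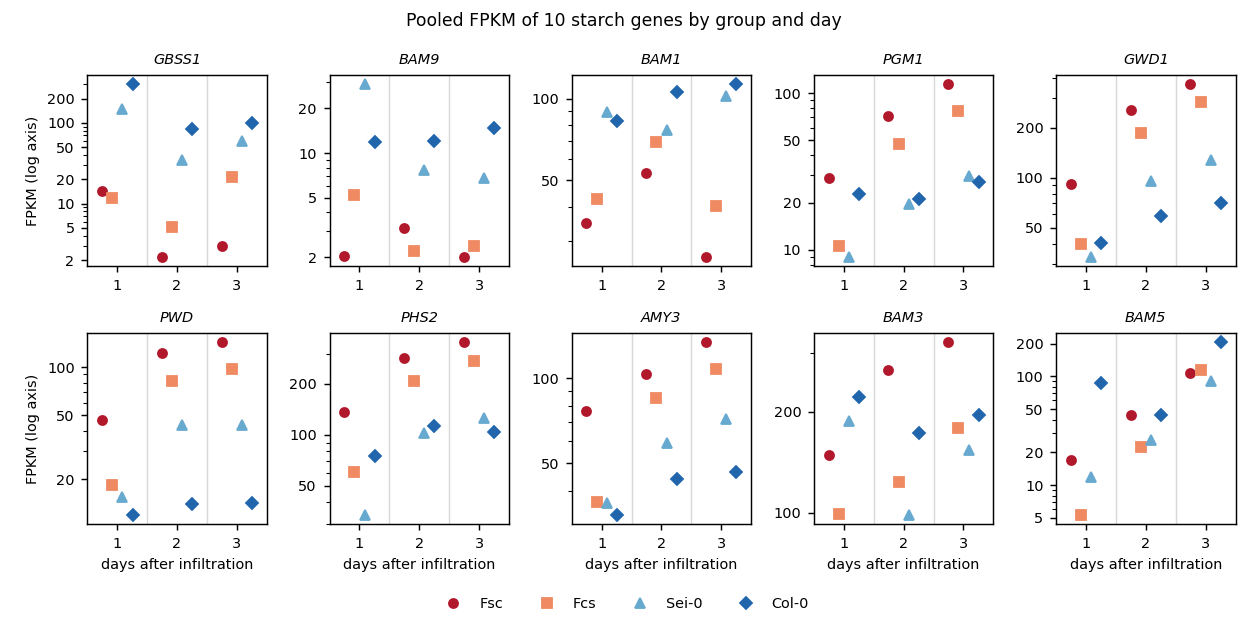
Each panel is a gene and each point the pooled FPKM of a group (log axis), with Fsc, Fcs, Sei-0 and Col-0 from left to right within each of 1, 2 and 3 dpi. There are no error bars because 1 value stands for 3 libraries. In GBSS1, BAM9 and BAM1 both hybrids are lower than either parent on each day, and in PGM1, GWD1, PWD, PHS2 and AMY3 both are higher than either parent at 2 and 3 dpi, by less than 2-fold in some.

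The 6 beta-amylases did not share a direction. BAM9 (AT5G18670, chr5:6225956-6228132 in TAIR10) encodes a family member without catalytic activity. It had 2.03 FPKM in Fsc and 5.21 FPKM in Fcs at 1 dpi, against 29.4 FPKM in Sei-0 and 11.9 FPKM in Col-0. At 2 dpi BAM9 had 3.15 FPKM in Fsc and 2.20 FPKM in Fcs, against 7.75 FPKM in Sei-0 and 12.1 FPKM in Col-0. Then, at 3 dpi, it had 1.99 FPKM in Fsc and 2.38 FPKM in Fcs, against 6.85 FPKM in Sei-0 and 14.7 FPKM in Col-0. The hybrids were below both parents on each day, but the parents changed places: the log2 ratio of Sei-0 to Col-0 was 1.23 at 1 dpi and -0.58 at 2 dpi. At 3 dpi Sei-0 was just short of 2-fold lower than Col-0 on the log2(FPKM + 1) scale, and over 2-fold lower in FPKM alone.

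BAM1 (AT3G23920, chr3:8641569-8644449 in TAIR10), a plastidial beta-amylase, had 34.8 FPKM in Fsc and 42.6 FPKM in Fcs at 1 dpi, against 89.8 FPKM in Sei-0 and 82.9 FPKM in Col-0. At 2 dpi BAM1 had 53.5 FPKM in Fsc and 69.1 FPKM in Fcs, against 76.5 FPKM in Sei-0 and 106 FPKM in Col-0. At 3 dpi it had 26.0 FPKM in Fsc and 40.1 FPKM in Fcs, against 103 FPKM in Sei-0 and 114 FPKM in Col-0. The hybrids were the lowest groups on each day, with the widest gap at 3 dpi.

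BAM3 (AT4G17090, chr4:9604502-9607334 in TAIR10), the main beta-amylase of leaf starch breakdown at night, had 149 FPKM in Fsc and 99.3 FPKM in Fcs at 1 dpi, against 188 FPKM in Sei-0 and 222 FPKM in Col-0. At 2 dpi BAM3 had 267 FPKM in Fsc and 123 FPKM in Fcs, against 98.0 FPKM in Sei-0 and 173 FPKM in Col-0. On the last day it had 324 FPKM in Fsc and 179 FPKM in Fcs, against 154 FPKM in Sei-0 and 196 FPKM in Col-0. Fcs lay between or below the parents throughout, while Fsc was higher than either parent at 2 and 3 dpi.

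BAM5 (AT4G15210, chr4:8666338-8669470 in TAIR10), a beta-amylase located outside the chloroplast, had 17.0 FPKM in Fsc and 5.25 FPKM in Fcs at 1 dpi, against 11.8 FPKM in Sei-0 and 87.0 FPKM in Col-0. At 2 dpi BAM5 had 43.8 FPKM in Fsc and 22.2 FPKM in Fcs, against 25.8 FPKM in Sei-0 and 44.5 FPKM in Col-0. Then, at 3 dpi, it had 107 FPKM in Fsc and 115 FPKM in Fcs, against 90.4 FPKM in Sei-0 and 208 FPKM in Col-0. Col-0 was the highest group on each day, and the hybrids were nearer to Sei-0 at 1 and 3 dpi. BAM4 (AT5G55700), which has no catalytic activity of its own, stayed between 9.57 and 15.2 FPKM, and BAM6 (AT2G32290) between 16.2 and 39.6 FPKM. The 3 phloem markers together summed to 128 FPKM in Fsc and 116 FPKM in Fcs at 1 dpi, against 142 FPKM in Sei-0 and 88.4 FPKM in Col-0, most of it SUC2, and their part in the BAM5 values was not tested.

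All 4 genes of alpha-amylase, debranching and phosphorolysis lay above the MPV in both hybrids at 2 and 3 dpi, and at 1 dpi all 4 did so in Fsc and 3 in Fcs. AMY3 (AT1G69830, chr1:26288278-26293053 in TAIR10), the plastidial alpha-amylase, had 76.8 FPKM in Fsc and 36.5 FPKM in Fcs at 1 dpi, against 36.2 FPKM in Sei-0 and 32.7 FPKM in Col-0. At 2 dpi AMY3 had 104 FPKM in Fsc and 85.2 FPKM in Fcs, against 59.3 FPKM in Sei-0 and 43.9 FPKM in Col-0. At 3 dpi it had 135 FPKM in Fsc and 108 FPKM in Fcs, against 71.8 FPKM in Sei-0 and 46.6 FPKM in Col-0. The gap was in Fsc alone at 1 dpi and in both hybrids later, when it did not reach 2-fold over Sei-0.

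ISA3 (AT4G09020), the debranching enzyme of breakdown, had 78.4 FPKM in Fsc and 57.1 FPKM in Fcs at 3 dpi, against 37.7 FPKM in Sei-0 and 18.9 FPKM in Col-0. LDA (AT5G04360), limit dextrinase, had 24.4 FPKM in Fsc and 19.7 FPKM in Fcs, against 12.8 FPKM in Sei-0 and 8.38 FPKM in Col-0 on that day. PHS1 (AT3G29320), the plastidial glucan phosphorylase, had 148 FPKM in Fsc and 121 FPKM in Fcs, against 65.7 FPKM in Sei-0 and 32.1 FPKM in Col-0. The order of the 4 groups was the same in ISA3, LDA, PHS1 and AMY3 at 2 and 3 dpi. Relative to the MPV, their ratios at 3 dpi lay between 1.13 and 1.58 in Fsc and between 0.84 and 1.29 in Fcs on the log2 scale.

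The genes of maltose export and use did not share a pattern. PHS2 (AT3G46970, chr3:17301394-17306446 in TAIR10), the cytosolic glucan phosphorylase, had 137 FPKM in Fsc and 60.2 FPKM in Fcs at 1 dpi, against 33.5 FPKM in Sei-0 and 74.7 FPKM in Col-0. At 2 dpi PHS2 had 283 FPKM in Fsc and 209 FPKM in Fcs, against 103 FPKM in Sei-0 and 112 FPKM in Col-0. On the last day it had 354 FPKM in Fsc and 271 FPKM in Fcs, against 126 FPKM in Sei-0 and 104 FPKM in Col-0. Sei-0 was the lowest group at 1 dpi, and both hybrids were higher than either parent at 2 dpi, with Fcs short of 2-fold over Col-0, and at least 2-fold higher at 3 dpi.

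DPE1 (AT5G64860), the plastidial enzyme that recycles maltotriose, had 55.7 FPKM in Fsc and 44.4 FPKM in Fcs at 3 dpi, against 24.3 FPKM in Sei-0 and 9.47 FPKM in Col-0. DPE2 (AT2G40840), the cytosolic transglucosidase that uses maltose, had 129 FPKM in Fsc and 155 FPKM in Fcs, against 166 FPKM in Sei-0 and 99.9 FPKM in Col-0 on that day. MEX1 (AT5G17520), the maltose exporter, had 9.20 FPKM in Fsc and 6.30 FPKM in Fcs at 1 dpi, against 14.2 FPKM in Sei-0 and 18.2 FPKM in Col-0, and log2 ratios to the MPV of 0.47 in Fsc and 0.13 in Fcs at 3 dpi. DPE1 thus had the order of the phosphorylases at 3 dpi, while DPE2 stayed between the parents in both hybrids at 2 and 3 dpi. At 1 dpi DPE2 was at 53.4 FPKM in Fsc and 28.9 FPKM in Fcs, against 49.1 FPKM in Sei-0 and 65.8 FPKM in Col-0.

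The reciprocal hybrids differed from each other mainly at 1 dpi. Fsc exceeded Fcs in 30 of 33 members on that day, with a median log2 ratio of 0.69, where the median over all genes was -0.01. At least 2-fold higher in Fsc were 6 members at 1 dpi (PGM1, GWD1, PWD, BAM5, AMY3 and PHS2), 1 at 2 dpi (BAM3) and 0 at 3 dpi, against 0.993%, 0.808% and 0.869% of all genes. At least 2-fold lower in Fsc were 1 member at 1 dpi (BAM9), 0 at 2 dpi and 1 at 3 dpi (GBSS1), against 1.70%, 1.81% and 1.76% of all genes. The median ratio over members was 0.27 at 2 dpi and 0.06 at 3 dpi. In the Fsc libraries of 1 dpi the 20 most abundant genes held 15.5% of the FPKM, against 23.3% in Fcs, and the part of this in the difference was not tested.

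Between the parents, more members were higher in Sei-0 at 3 dpi than at 1 dpi. At least 2-fold higher in Sei-0 than in Col-0 were 1 member at 1 dpi (BAM9), 3 at 2 dpi (SBE2.1, PWD and DPE1) and 5 at 3 dpi (SBE2.1, PWD, SEX4, PHS1 and DPE1), against 6.72%, 5.54% and 4.54% of all genes. At least 2-fold lower in Sei-0 were 5 members at 1 dpi (PGM1, APL3, GBSS1, BAM5 and PHS2), 2 at 2 dpi (APL3 and GBSS1) and 1 at 3 dpi (BAM5), against 8.21%, 7.42% and 6.95% of all genes. No member differed 2-fold between the parents on all 3 days. The median log2 ratio of Sei-0 to Col-0 over members was -0.24 at 1 dpi, -0.00 at 2 dpi and 0.28 at 3 dpi.

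**Figure D3:**
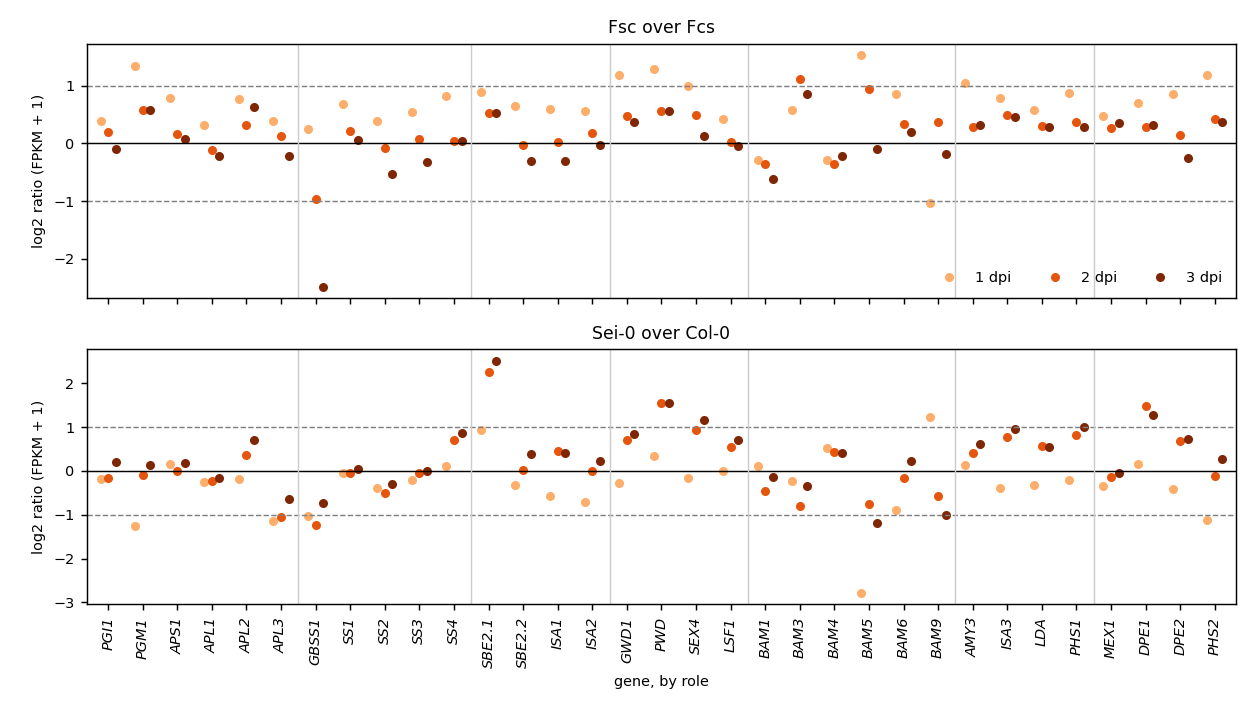
Points give the log2 ratio of FPKM + 1 for each of the 33 genes at 1, 2 and 3 dpi, with Fsc over Fcs in the upper panel and Sei-0 over Col-0 in the lower panel. Dashed lines mark 2-fold. In the upper panel the points of 1 dpi lie above 0 for 30 genes, and in the lower panel SBE2.1 reaches 2.51 at 3 dpi while BAM5 is at -2.78 at 1 dpi.

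Many members shared 1 order of the 4 groups, a rule chosen after the values were seen. From high to low, the order Fsc, Fcs, Sei-0, Col-0 held for 4 members at 1 dpi, 11 at 2 dpi and 15 at 3 dpi, which is 12.1%, 33.3% and 45.5% of members, where 6.38%, 8.15% and 16.8% of all genes had it. The same order from low to high held for 0 members at 1 dpi, 4 at 2 dpi and 5 at 3 dpi, the last being 15.2% of members, against 6.60%, 7.28% and 14.9% of all genes. SS4, PWD, AMY3 and DPE1 had the descending order on each day. With neighbours at least 1.1-fold apart, 9 members kept the descending order at 2 dpi and 10 at 3 dpi. The share of members in ascending order at 3 dpi was thus near that of all genes. These 5 were GBSS1, SS2, SS3, BAM1 and BAM9, of which SS3 had nearly the same level in the parents, with 27.9 FPKM in Sei-0 and 28.0 FPKM in Col-0.

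**Figure D4:**
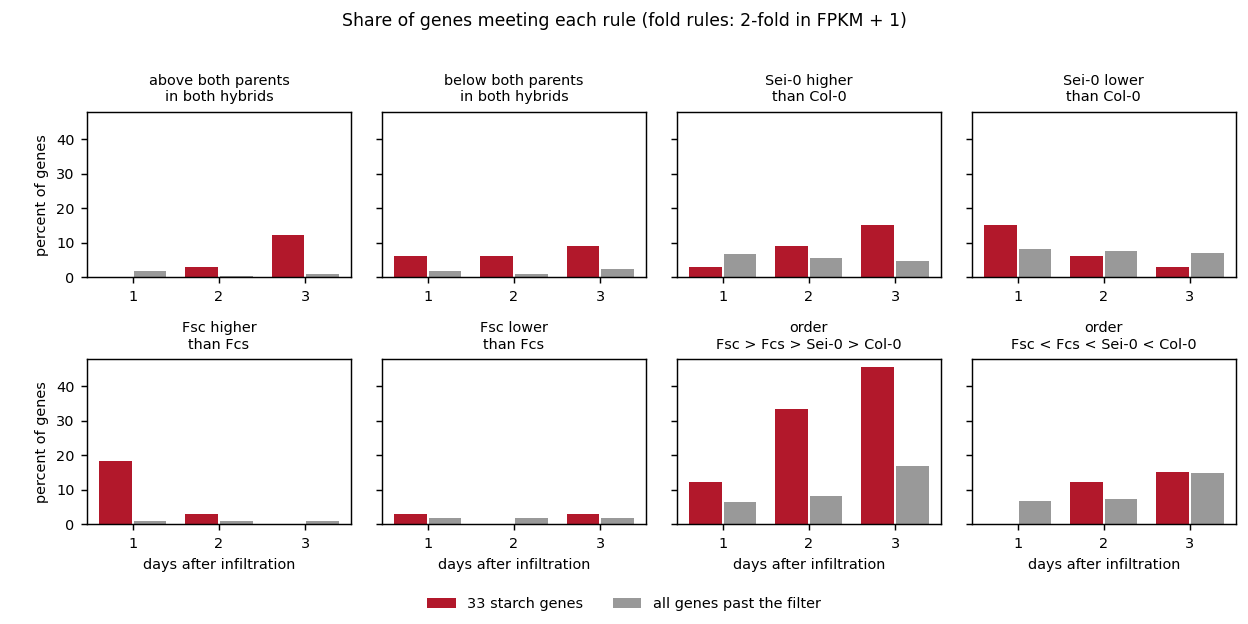
Bars give the percent of the 33 starch genes and of all genes with at least 1 FPKM that met each of 8 rules at 1, 2 and 3 dpi. The bars of the starch genes are tallest for the order Fsc > Fcs > Sei-0 > Col-0, at 45.5% at 3 dpi against 16.8% of all genes. Since 33 genes make up a bar, 1 gene changes it by 3.03 percentage points.

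Genes of the circadian clock had the same orders of the 4 groups. CCA1, a transcription factor of the morning, had 6.73 FPKM in Fsc and 15.6 FPKM in Fcs at 1 dpi, against 54.3 FPKM in Sei-0 and 115 FPKM in Col-0. At 2 dpi CCA1 was at 1.23 FPKM in Fsc and 3.72 FPKM in Fcs, against 17.7 FPKM in Sei-0 and 44.6 FPKM in Col-0. Its partner LHY had 4.87 FPKM in Fsc and 9.56 FPKM in Fcs at 1 dpi, against 34.7 FPKM in Sei-0 and 51.7 FPKM in Col-0. These orders match that of GBSS1 at 2 and 3 dpi. The evening genes were reversed: LUX had 23.0 FPKM in Fsc and 7.76 FPKM in Fcs at 1 dpi, against 2.26 FPKM in Sei-0 and 1.20 FPKM in Col-0. TOC1 had 46.8 FPKM in Fsc and 27.5 FPKM in Fcs, against 11.7 FPKM in Sei-0 and 6.41 FPKM in Col-0 on that day. GI had 32.8 FPKM in Fsc and 19.9 FPKM in Fcs, against 10.6 FPKM in Sei-0 and 8.98 FPKM in Col-0.

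Over the lists, the 5 morning genes summed to 118 FPKM in Fsc and 186 FPKM in Fcs at 1 dpi, against 350.4 FPKM in Sei-0 and 414 FPKM in Col-0, and the 6 evening genes to 217 FPKM in Fsc and 87.0 FPKM in Fcs, against 33.5 FPKM in Sei-0 and 21.5 FPKM in Col-0. All 6 evening genes had the descending order at 1 and 3 dpi and 5 of 6 at 2 dpi, and all 5 morning genes had the ascending order at 2 and 3 dpi and 4 of 5 at 1 dpi. The part of clock phase in the starch values was not tested.

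**Figure D5:**
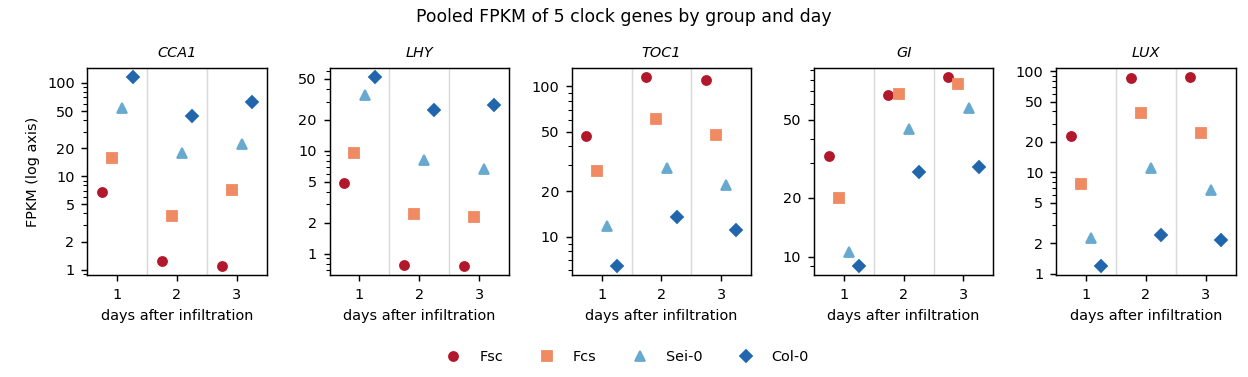
Each panel is a clock gene, with the pooled FPKM of Fsc, Fcs, Sei-0 and Col-0 (log axis) from left to right within each of 1, 2 and 3 dpi, and no error bars. CCA1 and LHY are lowest in Fsc and highest in Col-0 on each day, and TOC1 and LUX are highest in Fsc and lowest in Col-0.

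The upstream sequences were read to place clock motifs beside these values, from the RefSeq TAIR10.1 genome and annotation, which held all 33 members. In plants the evening element AAAATATCT is bound by CCA1 and LHY and is common in genes that peak late in the day. It was searched on both strands from 300 bases before to 100 bases after the annotated gene start. It was present in 6 of 33 members, and in 3.97% of 18451 protein-coding genes with at least 1 FPKM in a group. In the 300 bases before the start alone it was in 3 of 33 members, against 3.08%, so the count depends on the window. The 6 matches are shown with 10 bases on each side, on the strand that reads the motif, with the motif in capitals.
PGM1, chr5:21068511-21068539, plus strand: tggcgacactAAAATATCTcactaaaatt
GWD1, chr1:3590914-3590942, minus strand: aagataaacaAAAATATCTtctgcaattc
PWD, chr5:9261436-9261464, minus strand: acatgtccatAAAATATCTtctaaatatg
ISA3, chr4:5783860-5783888, minus strand: attttcccggAAAATATCTtcttgtacga
LDA, chr5:1221491-1221519, minus strand: tttgttcttcAAAATATCTatatttttgc
DPE1, chr5:25928849-25928877, minus strand: caagagcaacAAAATATCTcgactgtttt

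All 6 of these genes were among the 15 members in descending order at 3 dpi, and none of the 5 members in ascending order had the motif. Of all 3049 genes in descending order at 3 dpi 6.59% had it, and of 2707 genes in ascending order 3.03%. Along the strand of the gene, the match begins 33, 39 and 202 bases before the gene start in PWD, ISA3 and PGM1, in GWD1 it begins 4 bases before the start and runs across it, and in DPE1 and LDA it begins at bases 13 and 54 of the gene. The order was chosen after the values were seen, and the other motifs were not set beside it. A match is a string of letters and not a site shown to be bound.

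Before the start alone, the CCA1-binding site AAAAATCT was in 4 of 33 members (SBE2.2, ISA1, PWD and DPE2), against 8.06% of all such windows. The G-box CACGTG, bound by light-response and other transcription factors, was in 11 members, against 8.12%. The W-box, bound by WRKY factors of defence, was in 2 members as TTGACC, against 14.1%, and in 6 members as TTGACT, against 21.7%. With the first 100 bases of the gene added, the CCA1-binding site was in 5 members, against 10.6%, and the G-box in 14, against 10.6%. The W-box was then in 3 members as TTGACC (APL1, GBSS1 and BAM4), against 18.1%, and in 6 as TTGACT, against 27.4%. No match overlapped another in the 4 windows below.

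The 300 bases before the start are given for PWD and PHS1, which were high in the hybrids, and for GBSS1 and BAM9, which were below both parents on each day. Matches to the motifs named above are in capitals, each sequence runs along the strand of its gene, and the opposite-strand matches of PWD therefore read AGATTTTT and AGATATTTT.
PWD, chr5:9261179-9261478, plus strand: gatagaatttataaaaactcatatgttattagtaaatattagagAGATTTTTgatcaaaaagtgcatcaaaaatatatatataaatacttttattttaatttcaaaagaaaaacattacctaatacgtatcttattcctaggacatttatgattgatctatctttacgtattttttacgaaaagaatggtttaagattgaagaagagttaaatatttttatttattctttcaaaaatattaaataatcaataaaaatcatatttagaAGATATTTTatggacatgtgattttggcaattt
PHS1, chr3:11252507-11252806, plus strand: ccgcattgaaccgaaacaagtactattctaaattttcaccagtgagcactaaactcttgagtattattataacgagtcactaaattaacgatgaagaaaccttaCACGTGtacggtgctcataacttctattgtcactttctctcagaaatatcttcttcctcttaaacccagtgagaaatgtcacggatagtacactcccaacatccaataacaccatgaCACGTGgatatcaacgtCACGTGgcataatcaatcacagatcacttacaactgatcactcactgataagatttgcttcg
GBSS1, chr1:11923867-11924166, minus strand: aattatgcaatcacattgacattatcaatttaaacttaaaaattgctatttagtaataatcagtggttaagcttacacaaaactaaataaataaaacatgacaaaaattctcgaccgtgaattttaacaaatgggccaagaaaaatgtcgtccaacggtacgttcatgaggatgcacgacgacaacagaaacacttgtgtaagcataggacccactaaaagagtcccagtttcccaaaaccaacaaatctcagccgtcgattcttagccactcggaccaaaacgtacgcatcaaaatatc
BAM9, chr5:6225656-6225955, plus strand: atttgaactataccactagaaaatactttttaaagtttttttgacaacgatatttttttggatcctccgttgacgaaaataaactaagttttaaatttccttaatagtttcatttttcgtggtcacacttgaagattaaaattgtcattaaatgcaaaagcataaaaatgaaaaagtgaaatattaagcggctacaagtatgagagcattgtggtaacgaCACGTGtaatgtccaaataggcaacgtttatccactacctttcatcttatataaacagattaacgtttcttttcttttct

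PHS1 has the G-box at 3 places, BAM9 has it at 1 place, 80 bases before the start, and the GBSS1 window holds none of the motifs searched. The gene starts of TAIR10.1 are not those of the deposited TAIR10 tables for all members, so the windows belong to the RefSeq annotation alone. Positions marked TAIR10 are the deposited loci, which can reach beyond the gene. For BAM3 the locus runs from base 9604502 to 9607334, and the TAIR10.1 gene from 9604962 to 9607402. Others reach farther. The locus ends at base 15272823 in SBE2.1 and 16675748 in ISA1, and the TAIR10.1 genes end at 15270092 and 16672494. The APL1 locus starts at 6461391 and its gene span at 6463824. The part of this reach in the values was not tested.

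The other genes of starch metabolism and its sugar transport were taken as a list of 26. At 1 dpi 1 of 26 was above both parents, the glucose 6-phosphate transporter GPT2 (AT1G61800), with 264 FPKM in Fsc and 324 FPKM in Fcs, against 125 FPKM in Sei-0 and 108 FPKM in Col-0. At 3 dpi 1 of 25 that passed the filter was below both, the alpha-amylase AMY1 (AT4G25000), which lies outside the chloroplast, with 12.7 FPKM in Fsc and 28.2 FPKM in Fcs, against 83.8 FPKM in Sei-0 and 86.6 FPKM in Col-0. None of the 26 was outside both parents at 2 dpi. At 3 dpi GPT2 was lower in the hybrids, with 16.6 FPKM in Fsc and 49.1 FPKM in Fcs, against 106 FPKM in Sei-0 and 68.6 FPKM in Col-0. For this list the ratio to the MPV had a median, on the log2 scale, of -0.30 for Fsc and -0.49 for Fcs at 1 dpi, and of -0.11 for Fsc and -0.01 for Fcs at 3 dpi.

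At 1 dpi the FPKM of the 33 members summed to 1357 in Fsc and 813 in Fcs, against 1402 in Sei-0 and 1845 in Col-0. At 2 dpi the sums were 2274 in Fsc and 1748 in Fcs, against 1474 in Sei-0 and 1442 in Col-0, and at 3 dpi 2938 in Fsc and 2493 in Fcs, against 1959 in Sei-0 and 1749 in Col-0. The hybrids thus held the smallest sums at 1 dpi and the largest at 2 and 3 dpi. The sums of the leaf markers shared this turn in part, with 15979 FPKM in Fsc and 12881 FPKM in Fcs at 1 dpi, against 21989 FPKM in Sei-0 and 39948 FPKM in Col-0. At 3 dpi they were 28635 FPKM in Fsc and 25664 FPKM in Fcs, against 15529.6 FPKM in Sei-0 and 19326 FPKM in Col-0. Most of each sum was RBCS1A and LHCB1.3, the only leaf markers higher in both hybrids than in either parent at 3 dpi. LHCB2.1 had 128 FPKM in Fsc and 632 FPKM in Fcs on that day, against 508 FPKM in Sei-0 and 1388 FPKM in Col-0. The part of the leaf markers in the starch sums was not tested.

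In TAIR10.1 12 of the 33 members overlap another annotated gene, over 2386 bases in APL1, 1249 bases in ISA1, 693 bases in BAM6 and 343 bases in LSF1. Of the 10 members given in full, BAM3 overlaps a non-coding RNA gene over 518 bases, and BAM9 and PHS2 overlap a neighbouring protein-coding gene over 33 and 35 bases. The paper's methods describe double-stranded cDNA that was fragmented and built into libraries, and name no step that keeps strand. Reads of such overlaps therefore cannot be assigned by strand.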

How the data were processed

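Leaf mRNA of 36 libraries (12 groups of 3) was sequenced by the authors. Per the methods, trimmed and filtered reads were placed on the TAIR10 genome by TopHat, while the labels list Bowtie. Transcripts and FPKM came from Cufflinks, Cuffmerge and Cuffdiff. Versions are not given in the sources used here. The deposited tables, 1 per day, hold 1 FPKM value per gene and group, pooled by the authors over 3 libraries. Replicate spread and counting error are therefore unknown for each gene. The paper's supplement lists aligned bases and gene coverage per library, and correlations between replicates, which were not used here. The tables also hold the authors' fold changes, test statistics, p-values, q-values and significance calls, which were not used. No test was run, since the values have no replicates.

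FPKM values were read per group, and ratios taken on log2(FPKM + 1). Calls needed 2-fold, and backgrounds used genes with at least 1 FPKM in a group of the day. Members in full are those called outside both parents or 2-fold apart between the hybrids on any day, and those 2-fold apart between the parents on all 3 days; values of SBE2.1 and of other members given at single days were chosen after they were seen. Alternatives were a fold of 1.5, a pseudocount of 0.1, no filter, a filter of 5 FPKM and groups scaled to the same median. The higher and the lower parent of each gene also served as the reference. The calling was tested on simulated data. The members, lists and motifs were chosen with earlier results of these data known. Identifiers matched TAIR10.1 for 32810 of 33557 genes. Python 3.11.15, NumPy 2.4.6, pandas 2.3.3 and Matplotlib 3.10.9 were used.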

Additional observations from a re-analysis of the deposited data

How the results depend on the processing

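The values rest on 1 pooled FPKM per group, so no replicate could be left out, and no paired analysis was possible because the columns carry no replicate. Of 168 alternatives run on 84 results, 137 left the result within 1.5 times for a count or within 0.1 for a log2 ratio. Every member reached 5 FPKM in at least 1 group on each day, so no filter and a filter of 5 FPKM could not change any member result. These settings count among the 137 all the same. Scaling to the same median changed no count by more than 1.5 times and no median by 0.1 or more. A fold of 1.5 gave 5 members below both parents at 1 dpi, 5 and 8 above both parents at 2 and 3 dpi, 13 and 16 apart between the parents at 2 and 3 dpi, and 20, 3 and 4 apart between the hybrids at 1, 2 and 3 dpi. A pseudocount of 0.1 gave 2 apart between the hybrids at 2 dpi, and moved 10 of 60 ratios of single members by 0.1 or more, in GBSS1, BAM5 and BAM9, with no change of sign. With the higher parent as the reference the members' median log2 ratio was -0.30, 0.08 and 0.16 in Fsc at 1, 2 and 3 dpi, and -1.03 and -0.11 in Fcs at 1 and 2 dpi, the last turning sign. With the lower parent it was 0.24, which turns sign, and 0.48 in Fsc at 1 and 2 dpi, and -0.68, 0.33 and 0.35 in Fcs at 1, 2 and 3 dpi. The higher parent of each gene can only lower a ratio and the lower parent only raise it, so the direction of these shifts was set by the choice. Neighbours at least 1.1-fold apart, a rule chosen after seeing the data, left 2, 9 and 10 members in descending order at 1, 2 and 3 dpi. In ascending order it left 0, 2 and 4 members on these days.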
